A study of Mus musculus with 21 samples.

Results

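The genes described here are 40 cell cycle genes, taken by name from a list of DNA replication and mitosis genes, of 18193 genes with a probe set of a single gene symbol on the array. Of the 40, 16 act at the G1 to S transition or in DNA replication (here the S set), 17 act in G2 and mitosis (the M set), and 7 are G1 cyclins, the related gene Ccng2 or cyclin-dependent kinase inhibitors. Each gene was measured by whichever of its probe sets had the highest mean, and all 40 passed the filter on low signal that left 12143 genes for testing. Total RNA came from the presomitic mesoderm (PSM), the unsegmented tissue from which somites form, of CD-1 mouse embryos, an outbred strain. The stage label is E8.5 and the dissection protocol gives 9.0 days post-coitus. Embryos were treated with pancreatin, the surrounding tissue was removed, and the PSM was cut into 7 parts with 3 arrays each, 21 in all. No group carried a mutation or another treatment. The labels number the parts without saying which number lies at which end, and some arrays share an embryo, since left and right PSM of 1 embryo were used. Therefore the p-values measure the spread between these arrays, which is not the same as the spread between embryos.

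A cell that divides loads the MCM helicase on origins of replication in G1, with the help of Cdc6 and Cdt1, and fires these origins in S phase. D-type cyclins with Cdk4 or Cdk6, and then E-type cyclins with Cdk2, release E2F factors that transcribe the replication genes, while inhibitors of the Cdkn1 family hold cyclin-dependent kinases back. Genes of G2 and mitosis are transcribed later, with a peak before division. Transcripts of both kinds are abundant in cycling tissue and low in resting cells, so they are read as signs of proliferation.

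The arrays of a part were alike, with a mean Pearson correlation of each array with the other 2 of its part between 0.963 and 0.982. All 10 mesoderm markers looked up, among them Tbx6 of the unsegmented tissue and Meox1 of somites, were measured. Their summed signal lay between 2180 and 2724 in part 1 and between 5231 and 7488 in part 7. This sum pools genes that went opposite ways, since 4 of the 10 rose with the part number and 4 fell. Meox1 was 69.1-fold higher in part 7 than in part 1, and Tbx6 was 12.6-fold lower. By these markers part 7, rather than part 1, was the more somite-like end, which the labels do not state. Blood markers were also present, with a summed signal over 10 genes, led by embryonic globins, between 11001 and 20038 in part 1 and between 6633 and 12570 in part 7. Of the 9 blood genes tested 7 fell with the part number. The adult globin gene Hba-a1 reached 13.3, the median signal of the whole table, in 0 of 21 arrays. Among 10 endothelial genes Pecam1 reached it in 1 array, but Egfl7 in 21, Kdr in 19 and Esam in 18. Between these lay Tie1 with 6 arrays, Cdh5 with 9, Erg with 11, Tek with 13, Emcn with 14 and Cldn5 with 17. Among 8 neural tube genes Sox1 reached it in 1, Nkx6-1 in 3, Pax6 in 4, Sox2 in 6 and Olig2 in 7, but Ncam1 and Fabp7 in 21 and Irx3 in 18. No marker was listed at a signal of 0. Each array is scaled to a common mean, so levels are relative to all other genes, and a change shared by most genes could not be seen. In these tissue pieces fewer cells of a type and less RNA per cell cannot be told apart.

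Genes of the S and M sets stayed within narrow limits along the PSM, while the G1 cyclins and inhibitors ranged widely. All values below are log2(signal + 16), and an adjusted p under 0.05 from limma counts as passing the test. The mean of the 16 S genes per array lay between 9.73 and 9.995 over all 21 arrays, with part means from 9.82 ± 0.08 in part 3 to 9.93 ± 0.06 in part 1 (SD, n = 3). For the 17 M genes the array means lay between 9.40 and 9.64, with part means from 9.47 ± 0.06 in part 5 to 9.53 ± 0.11 in part 6 (SD, n = 3). The highest and the lowest part mean of a gene differed by 0.12 to 0.69 in the S set, by 0.085 to 0.56 in the M set and by 0.46 to 1.80 among the 7 others. The median of this range was 0.27, 0.28 and 1.03 in these sets, against 0.44 over all genes tested and 0.35 over the 3518 genes with a mean log2 signal from 8 to 12. The S and M sets had median levels of 10.43 and 9.57, above the 9.06 of these 3518 genes. Their median SD within parts was smaller, 0.107 and 0.164 against 0.193. The part of level and spread in the narrower range was not tested. None of the 33 S and M genes but 4 of the 7 others, Ccnd1, Cdkn1c, Ccnd2 and Ccng2, ranged over more than 1 log2 unit, as did 11.1% of all genes tested.

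**Figure D1:**
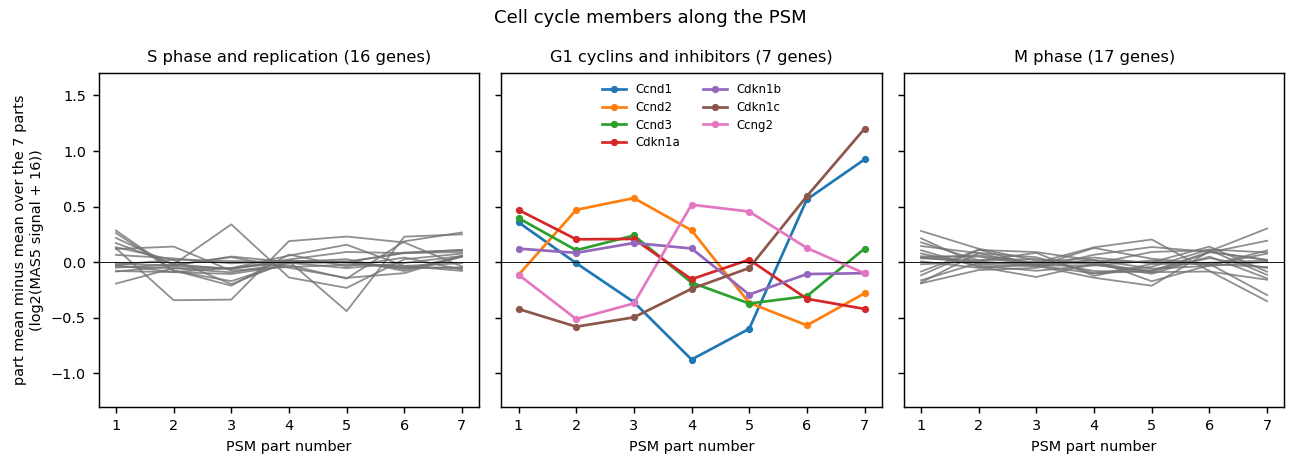
Mean of each part minus the gene's mean over the 7 parts, in log2(MAS5 signal + 16), against the PSM part number, with 1 line for each gene. Each gene is shown by its probe set with the highest mean, and so measured no S or M gene ranges over more than 0.69 log2 units. Ccnd1 dips in part 4, Ccnd2 is high in parts 2 to 4, Ccng2 in parts 4 and 5, and Cdkn1c in part 7.

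The slope of a straight line on the part number passed the test in 7 of the 40 genes, of which 4 rose and 3 fell, a share of 17.5% against 19.2% of all genes tested. In the S set 3 of 16 rose (Rrm2, Cdt1 and Mcm7) and 13 did not pass, and in the M set 1 of 17 fell (Mki67) and 16 did not pass. Of all genes tested 8.09% rose and 11.1% fell. The steepest slope among the S and M genes, each at its probe set with the highest mean, was that of Mki67 at -0.065 per part. Some other probe sets were steeper, among them 0.113 for Ccne1, 0.093 for Cdt1 and -0.093 for Cenpf. Slopes of the 29 S and M genes that did not pass lay between -0.052 and 0.042, and the 95% interval of 24 of them was within 0.1 log2 units of 0. The median slope was 0.0022 in the S set and -0.0050 in the M set, beside -0.0013 over all genes tested.

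Rrm2 encodes the regulatory subunit of ribonucleotide reductase, which makes deoxyribonucleotides for DNA synthesis. Its levels were 11.59, 11.66 and 11.69 in part 1, 11.83, 11.76 and 11.78 in part 2, 11.82, 11.79 and 11.74 in part 3, and 11.84, 11.84 and 11.91 in part 4. In parts 5, 6 and 7 they were 11.99, 11.84 and 11.97, then 12.08, 11.77 and 11.92, and last 11.84, 11.90 and 12.11. Every array of part 1 lay below all others, those of parts 2 and 3 lay below parts 4, 5 and 7, and part 6 overlapped with all parts but part 1. The slope was 0.047 ± 0.010 per part (SE, adjusted p = 0.00115), and part 7 was 1.23-fold higher than part 1 (log2 difference 0.30 ± 0.08, SE, adjusted p = 0.0131). Without part 1 the slope was 0.037 with an adjusted p of 0.0545, and the difference lost its call without replicate 1, 2 or 3 (adjusted p = 0.0782, 0.0902 and 0.0917). The partner subunit gene Rrm1 had a slope of -0.018 ± 0.011 (SE, adjusted p = 0.27).

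Cdt1, which loads the MCM helicase on origins, overlapped in parts 1 to 5 and was higher in parts 6 and 7. In part 1 its levels were 11.01, 11.05 and 11.18, in part 2 11.05, 11.01 and 11.16, in part 3 11.02, 11.09 and 11.05, in part 4 11.05, 11.14 and 11.22, and in part 5 10.98, 10.91 and 11.16. The 3 arrays of part 6 gave 11.33, 11.27 and 11.45 and those of part 7 gave 11.38, 11.31 and 11.60. Every array of parts 6 and 7 was above every array of the other parts. Cdt1 rose by 0.056 ± 0.015 per part (SE, adjusted p = 0.00818), was 1.27-fold higher in part 7 than in part 1 (0.35 ± 0.09, SE, adjusted p = 0.012), and was the only S or M gene past the moderated F test over the 7 parts (adjusted p = 0.00887). Without part 7 its slope was 0.035 with an adjusted p of 0.184. Without replicate 1 none of the 3 tests passed (adjusted p = 0.0745, 0.190 and 0.353), and without replicate 2 the slope alone did.

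Among the subunits of the MCM2-7 helicase, which unwinds DNA at the fork, Mcm7 rose and the other 5 did not pass. Mcm7 had levels of 11.83, 11.89 and 12.04 in part 1, 11.92, 11.91 and 12.08 in part 2, 11.90, 11.93 and 12.02 in part 3, 11.95, 12.03 and 12.03 in part 4, 11.93, 11.96 and 12.14 in part 5, 12.01, 12.09 and 12.15 in part 6 and 12.06, 11.99 and 12.24 in part 7, with parts 1 and 7 overlapping. Its slope of 0.029 ± 0.009 per part (SE, adjusted p = 0.0316) lost its call under 13 of 37 alternatives, among them no filter, quantile normalization and leaving out part 1 or part 7. Slopes of the other subunits were -0.024 for Mcm2, 0.029 for Mcm3, 0.013 for Mcm4, 0.0032 for Mcm5 and 0.0012 for Mcm6. Mcm2 and Mcm3, each called in 1 test once a replicate term was added, lay on opposite sides. Mcm2 had 10.29, 10.37 and 10.09 in part 1, 10.02, 10.16 and 9.99 in part 2, 10.10, 10.01 and 9.93 in part 3, 10.10, 10.23 and 9.95 in part 4, 10.03, 10.15 and 10.04 in part 5, 9.99, 10.03 and 10.05 in part 6 and 10.07, 9.98 and 10.04 in part 7. For Mcm3 the values were 10.52, 10.58 and 10.55, then 10.52, 10.61 and 10.48, 10.66, 10.46 and 10.37, 10.64, 10.62 and 10.49, 10.64, 10.57 and 10.55, 10.86, 10.69 and 10.47 and, in part 7, 10.74, 10.61 and 10.75. Parts 1 and 7 did not overlap in either gene, with Mcm2 lower and Mcm3 higher in part 7. For Mcm5, the subunit with the smallest spread within parts, the 95% interval of part 7 minus part 1 ran from -0.067 to 0.20.

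Pcna, the sliding clamp of DNA polymerases, had its highest mean in part 1, with 11.58, 11.30 and 11.46. Parts 2, 3 and 4 gave 10.92, 11.09 and 11.27, then 10.95, 10.71 and 11.19, and 11.11, 11.19 and 11.39, and parts 5, 6 and 7 gave 10.80, 11.19 and 11.39, then 11.04, 11.21 and 11.36, and 11.09, 10.96 and 11.24. Parts 1 and 7 did not overlap, and the other parts overlapped with part 7. The part 7 minus part 1 difference of -0.35 ± 0.15 (SE) did not pass (adjusted p = 0.121) but did with a replicate term (adjusted p = 0.0169). Cdc6, the loader that acts with Cdt1, also had its highest mean in part 1, with 9.61, 9.62 and 9.42. Parts 2, 3 and 4 gave 9.12, 9.27 and 9.23, then 9.13, 9.09 and 9.13, and 9.29, 9.29 and 9.27, and parts 5, 6 and 7 gave 9.13, 9.26 and 9.31, then 9.24, 9.23 and 9.37, and 9.39, 9.22 and 9.42. Parts 1 and 7 overlapped by 1 array (difference -0.21 ± 0.10, SE, adjusted p = 0.168). For 14 of the 16 S genes part 7 against part 1 did not pass, with differences of 0.019 to 0.35 in size. Ccne1 and Ccne2, the E-type cyclins that act with Cdk2, had slopes of 0.019 ± 0.054 and 0.040 ± 0.036 (SE), and E2f1 had -0.0035 ± 0.031.

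Mki67, the gene of the proliferation antigen Ki-67, was the only M gene with a slope past the test. Its levels were 11.35, 10.98 and 11.18 in part 1, 10.89, 10.94 and 11.20 in part 2, 10.86, 10.77 and 11.08 in part 3 and 10.87, 10.67 and 10.89 in part 4. In parts 5, 6 and 7 they were 10.79, 10.82 and 10.79, then 10.76, 10.76 and 10.89, and 10.59, 10.69 and 10.91. Parts 1 and 7 did not overlap, and parts 4 to 7 did. Mki67 fell by 0.065 ± 0.015 per part (SE, adjusted p = 0.00201), and part 7 was 1.36-fold lower than part 1 (-0.44 ± 0.11, SE, adjusted p = 0.0125). The slope was -0.049 without part 1 (adjusted p = 0.0616) and -0.052 without replicate 1 (adjusted p = 0.0734), where the difference between parts 7 and 1 was -0.28 (adjusted p = 0.372); without replicate 2 that difference had an adjusted p of 0.0595. Of the 9 blood markers tested 7 fell as well, with the summed values given above. Of 7 gut endoderm genes tested 1, Krt8, fell and 6 did not pass. The summed signal of 10 such genes lay between 227 and 424 in part 1 and between 75.9 and 275 in part 7. Among 7 neural tube genes tested 1, Fabp7, fell and 2 rose. The part of any of these markers in this result was not tested.

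The other M genes did not pass without a replicate term. Top2a, the topoisomerase that untangles chromosomes, had 10.88, 11.20 and 10.91 in part 1, 11.21, 11.12 and 10.84 in part 4 and 10.98, 11.25 and 11.07 in part 7. Cdk1, the kinase that drives entry into mitosis, had 9.81, 9.42 and 9.99 in part 1, 9.71, 9.65 and 9.89 in part 4 and 9.63, 9.54 and 9.78 in part 7. In both genes parts 1 and 7 overlapped.

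Spindle and checkpoint genes lay on both sides of 0. The spindle motor gene Kif11 had levels of 8.06, 7.86 and 7.99 in part 1, 7.52, 7.95 and 7.74 in part 2, 7.73, 7.83 and 7.61 in part 3, 7.85, 8.07 and 7.73 in part 4, 7.67, 8.08 and 7.61 in part 5, 7.65, 8.06 and 7.51 in part 6 and 7.19, 7.62 and 7.58 in part 7. All 3 arrays of part 7 lay below those of part 1, by 0.51 ± 0.17 in the means (SE, adjusted p = 0.0567). The spindle assembly factor gene Tpx2 had 9.35, 9.37 and 9.49 in part 1, 9.73, 9.67 and 9.60 in part 2, 9.59, 9.79 and 9.51 in part 3, 9.52, 9.43 and 9.52 in part 4, 9.66, 9.54 and 9.45 in part 5, 9.70, 9.70 and 9.71 in part 6 and 9.67, 9.62 and 9.73 in part 7. Here every array of part 7 was above part 1 (0.27 ± 0.09, SE, adjusted p = 0.0607). The checkpoint kinase gene Bub1b had 9.76, 9.73 and 10.15 in part 1, 10.09, 9.79 and 10.23 in part 2, 9.96, 10.06 and 10.07 in part 3, 9.93, 9.93 and 10.25 in part 4, 9.78, 9.98 and 10.10 in part 5, 10.02, 10.03 and 10.34 in part 6 and 10.11, 10.06 and 10.53 in part 7. Its parts 1 and 7 overlapped, with replicate 3 the highest in both (0.36 ± 0.15, SE, adjusted p = 0.133). With a replicate term in limma the differences of Kif11, Tpx2 and Bub1b passed (adjusted p = 0.0112, 0.0285 and 0.00735). Cenpf, a kinetochore gene, had a difference of -0.32 ± 0.15 (SE, adjusted p = 0.183). The cyclins Ccna2 and Ccnb2 had differences of -0.0010 ± 0.088 and -0.20 ± 0.11, and Plk1, Aurka and Aurkb, kinases of mitosis, 0.22 ± 0.14, -0.085 ± 0.13 and -0.050 ± 0.13 (SE).

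**Figure D2:**
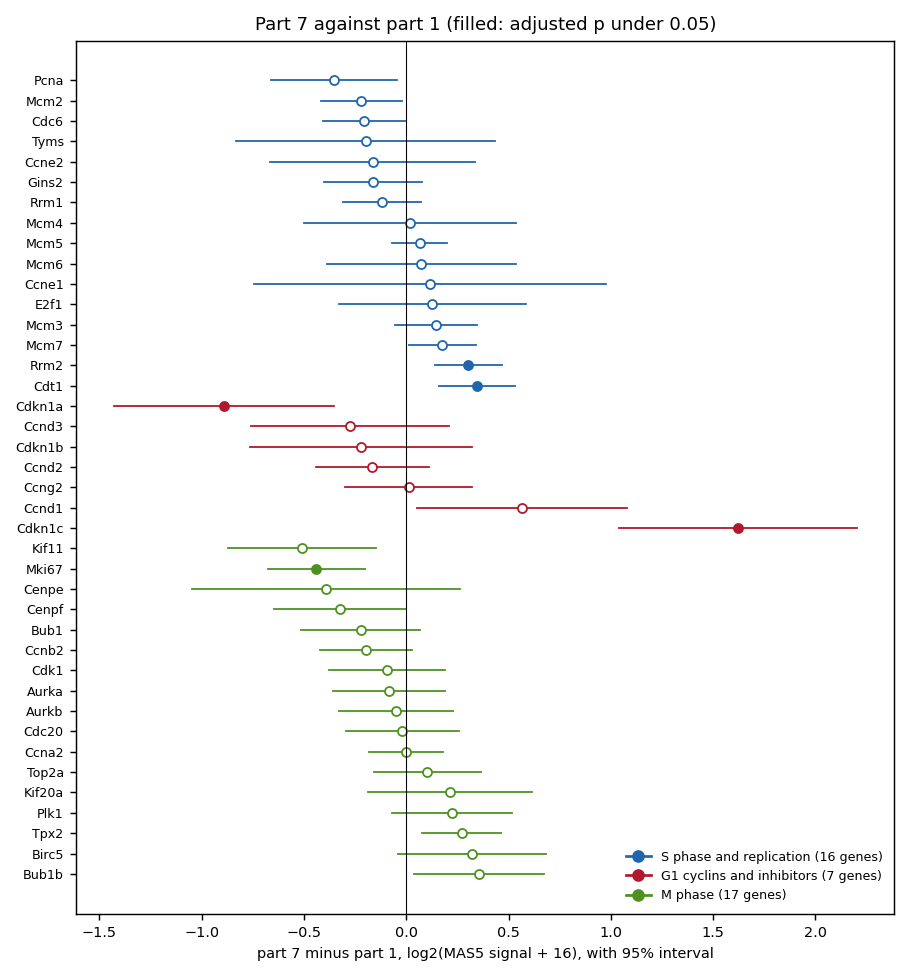
Part 7 minus part 1 in log2(MAS5 signal + 16) for each of the 40 genes (3 arrays each), with the 95% interval as a line, colours for the sets and filled points for an adjusted p under 0.05. Rrm2, Cdt1 and Cdkn1c were higher in part 7 and Mki67 and Cdkn1a lower; the interval of Cdkn1c starts at 1.04, beyond the upper end of every S and M gene.

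Part 7 against part 1 called 5 of the 40 genes, 12.5% against 13.4% of all genes tested. Of the 5, 3 were higher in part 7 and 2 lower, where of all genes 6.1% were higher and 7.3% lower. For 29 of the 30 S and M genes that did not pass, the 95% interval of the difference lay within 1 log2 unit of 0, the exception being Cenpe with -1.05 to 0.27, and for 15 of them it lay within 0.5. The arrays of parts 1 and 7 did not overlap for 10 of the 33 S and M genes, 30.3% beside 29.1% of all genes tested. Of these 10 genes 4 were higher in part 7. The moderated F test over parts called 1 of 16 S genes and 0 of 17 M genes (2 at an unadjusted p under 0.05), beside 13.4% of all genes tested. The mean of parts 3 to 5 against that of parts 1, 2, 6 and 7 called 0 of the 33 with limma (3 at an unadjusted p under 0.05) and 2.92% of all genes tested, 1.32% as higher and 1.6% as lower.

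**Figure D3:**
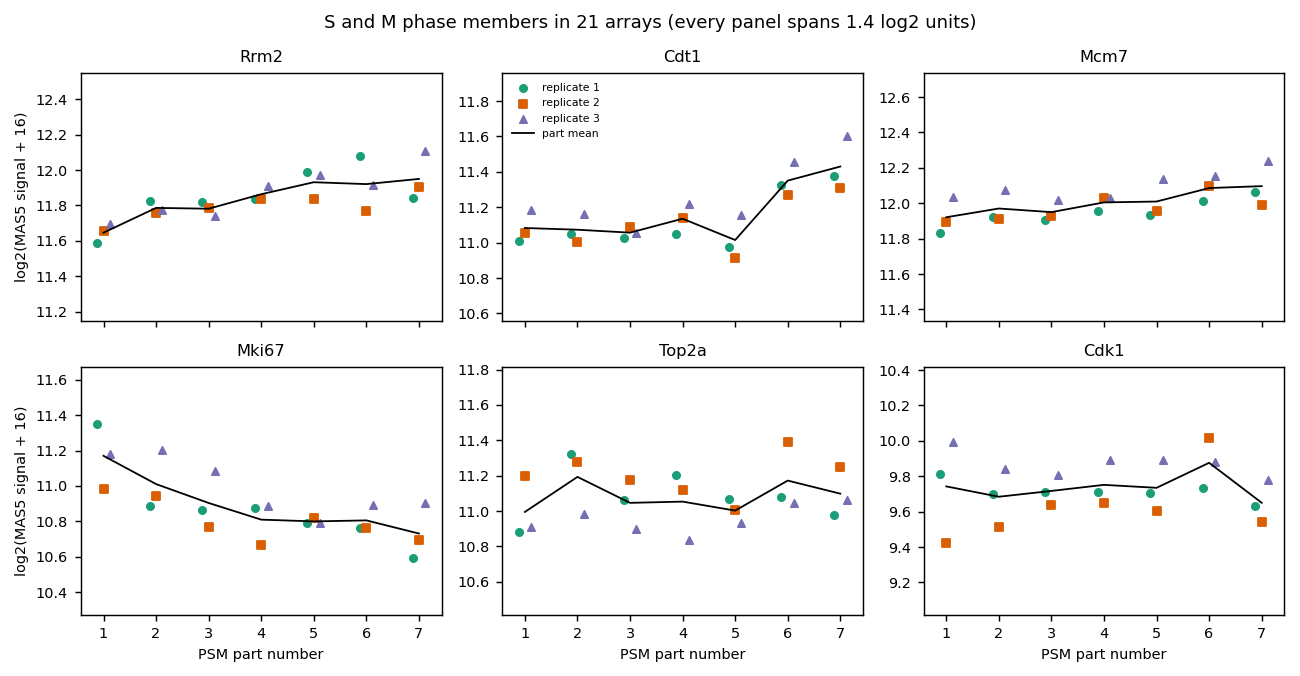
Levels of 6 S and M genes in log2(MAS5 signal + 16), 1 point for each of the 21 arrays, by PSM part number; the symbol gives the replicate number and the line joins the 7 part means. Rrm2, Cdt1 and Mcm7 rose and Mki67 fell, each by less than 0.5 log2 units between parts 1 and 7, and Top2a and Cdk1 did not pass.

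Promoters of the S and M genes were searched for motifs known for each class, and promoters of genes with a slope past the test are shown with the matches marked. RefSeq sequences of assembly GRCm38.p6, from 250 bases before to 50 after an annotated start, were found for 30 of the 40 genes and not for Mcm4, Gins2, Ccne2, Ccnd1, Ccnd2, Cdkn1c, Ccna2, Aurkb, Kif20a and Tpx2. Both strands were searched for 3 E2F motifs (TTTCCCGC, TTTGGCGC and TTTCGCGC), for the cell cycle homology region of late cell cycle genes (CHR, TTTGAA) and for the CCAAT box. An E2F motif was in 6 of 14 promoters of S genes (42.9%), in 1 of 13 of M genes (7.69%) and in 1.84% of all 32851 promoters of the table. The CHR was in 10 of 13 promoters of M genes (76.9%), in 1 of 14 of S genes (7.14%) and in 17.9% of all. CCAAT was in 12 of 13, 9 of 14 and 37.4%. None of the 6 promoters of Ccnd3, Ccng2, Cdkn1a and Cdkn1b held an E2F motif or a CHR. A match is a run of letters, and binding was not measured here.

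In the promoters below, capitals mark the matches to these motifs and all other bases are in lower case, 5′ to 3′ on the strand of the gene. Mki67, which fell, lies at chr7:135716330-135716629 (minus strand), with both CHR matches, at -116 and -98, downstream of 3 CCAAT boxes. Ccnb2, at chr9:70421505-70421804 (minus strand), and Cdk1, at chr10:69352863-69353162 (minus strand), are M genes that did not pass and are shown, by a choice made after their values were seen, because they hold the same motifs. Rrm2, which rose, lies at chr12:24708004-24708303 (plus strand). Cdt1 lies at chr8:122567765-122568064 (plus strand), and Mcm7, whose second E2F match shares a base with a CCAAT box, at chr5:138171834-138172133 (minus strand). A further promoter of Mcm7 in the table, with a CCAAT box, and 2 of Cdkn1a, with no match, are not printed.
Mki67: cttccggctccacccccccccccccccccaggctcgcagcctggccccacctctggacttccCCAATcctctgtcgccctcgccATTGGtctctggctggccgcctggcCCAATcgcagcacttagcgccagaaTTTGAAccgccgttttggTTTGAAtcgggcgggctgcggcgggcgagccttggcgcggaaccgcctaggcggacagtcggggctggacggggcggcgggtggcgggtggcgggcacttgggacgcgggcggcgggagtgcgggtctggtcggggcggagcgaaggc
Ccnb2: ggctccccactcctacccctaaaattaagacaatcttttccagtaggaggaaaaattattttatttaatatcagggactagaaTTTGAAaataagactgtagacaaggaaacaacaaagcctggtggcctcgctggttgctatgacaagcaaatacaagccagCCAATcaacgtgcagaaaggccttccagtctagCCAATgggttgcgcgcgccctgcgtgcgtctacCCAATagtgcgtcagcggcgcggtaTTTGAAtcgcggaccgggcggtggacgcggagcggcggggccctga
Cdk1: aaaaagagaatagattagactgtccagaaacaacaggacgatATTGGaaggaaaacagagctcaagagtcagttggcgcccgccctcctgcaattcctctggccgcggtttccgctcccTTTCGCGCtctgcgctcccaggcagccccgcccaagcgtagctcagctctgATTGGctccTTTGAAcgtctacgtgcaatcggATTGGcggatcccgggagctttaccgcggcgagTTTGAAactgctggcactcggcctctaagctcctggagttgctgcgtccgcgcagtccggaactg
Rrm2: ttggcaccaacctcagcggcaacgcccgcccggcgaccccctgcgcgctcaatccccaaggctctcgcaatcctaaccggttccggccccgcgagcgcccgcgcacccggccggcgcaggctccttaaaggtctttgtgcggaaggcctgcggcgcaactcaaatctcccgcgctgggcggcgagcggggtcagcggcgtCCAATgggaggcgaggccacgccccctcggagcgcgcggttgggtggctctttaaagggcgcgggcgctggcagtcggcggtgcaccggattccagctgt
Cdt1: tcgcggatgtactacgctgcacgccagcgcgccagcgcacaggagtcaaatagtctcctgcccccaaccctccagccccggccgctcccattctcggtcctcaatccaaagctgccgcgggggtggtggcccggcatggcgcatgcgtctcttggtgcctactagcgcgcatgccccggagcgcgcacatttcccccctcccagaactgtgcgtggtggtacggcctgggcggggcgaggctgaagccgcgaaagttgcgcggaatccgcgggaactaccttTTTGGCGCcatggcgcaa
Mcm7: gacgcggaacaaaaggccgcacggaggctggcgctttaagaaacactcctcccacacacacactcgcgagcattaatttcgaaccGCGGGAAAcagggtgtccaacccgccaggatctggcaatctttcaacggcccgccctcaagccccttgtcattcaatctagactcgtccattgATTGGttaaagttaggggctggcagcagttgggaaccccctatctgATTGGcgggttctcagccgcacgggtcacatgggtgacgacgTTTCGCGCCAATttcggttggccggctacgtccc
Cdk1 alone of these M genes also holds an E2F match, and Rrm2 holds a CCAAT box only.

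Of the 7 G1 cyclins and inhibitors 3 passed the slope (Cdkn1c rose, Ccnd2 and Cdkn1a fell), 4 the F test and 3 the comparison of parts 3 to 5 with the others. These are 42.9%, 57.1% and 42.9%, beside 19.2%, 13.4% and 2.92% of all genes tested. Ccnd1, Ccnd2 and Ccng2, each past the F test, had their highest means in parts 7, 3 and 4.

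Ccnd1, cyclin D1, the partner of Cdk4 and Cdk6 that responds to growth factors, was high at both ends and low in the middle. Its levels were 8.74, 9.63 and 9.36 in part 1, 9.06, 9.09 and 8.49 in part 2, 8.67, 8.61 and 8.30 in part 3 and 7.84, 7.87 and 8.32 in part 4. They were 8.61, 7.92 and 8.33 in part 5, 9.53, 9.23 and 9.59 in part 6 and 10.09, 9.34 and 10.005 in part 7. Every array of parts 6 and 7 was above every array of parts 2 to 5. The mean of parts 3 to 5 was 2.10-fold lower than that of the others (-1.07 ± 0.13, SE, adjusted p = 6.89e-05), and the F test gave an adjusted p of 0.000135. Its slope of 0.093 ± 0.066 (SE) did not pass (adjusted p = 0.365). The summed signal of 8 neural tube markers, led by Ncam1 and Fabp7, was also lowest in the middle, between 1350 and 1729 in part 1, 964 and 1102 in part 3, 1031 and 1142 in part 4 and 1311 and 1362 in part 7. Ncam1 rose and Fabp7 fell with the part number, 1 of the 7 neural genes tested passed for the middle parts, and their part in the result was not tested.

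Ccnd2, cyclin D2, which has the same kinase partners, was highest in parts 2, 3 and 4. In part 1 its levels were 9.85, 9.88 and 10.16, and in these 3 parts 10.54, 10.41 and 10.70, then 10.59, 10.90 and 10.48, and 10.33, 10.40 and 10.37. Parts 5, 6 and 7 gave 9.61, 9.67 and 9.86, then 9.49, 9.45 and 9.59, and 9.96, 9.51 and 9.92. Each array of parts 2 to 4 was above every array of the other parts. The F test had an adjusted p of 7.03e-06, and the highest and lowest part means, in parts 3 and 6, differed 2.21-fold. Ccnd2 fell by 0.126 ± 0.037 per part (SE, adjusted p = 0.018), a slope that lost its call without any 1 of the 3 replicate numbers (adjusted p from 0.0514 to 0.0901). The ends did not differ by the test, with part 7 minus part 1 at -0.17 ± 0.13 (SE, adjusted p = 0.461). Parts 3 to 5 were 1.22-fold higher than the others (0.29 ± 0.07, SE, adjusted p = 0.0292), and this was lost under 12 of 35 alternatives, among them no variance trend, the mean of its probe sets, replicate 1 or 2 left out (adjusted p = 0.257 and 0.47) and 8 single arrays left out. The summed signal of 10 endothelial markers lay between 94.4 and 637 in part 1, 90.8 and 1267 in part 2, 589 and 879 in part 3, 240.0 and 646 in part 4, 209 and 348 in part 5, 68.3 and 286 in part 6 and 108 and 356 in part 7. All 9 endothelial genes tested had their highest mean in part 3, as Ccnd2 did, and 1 of them fell with the part number. However, 0 of the 9 passed for parts 3 to 5 against the others (2.92% of all genes). The F test called 1 of them (13.4% of all genes), and 6 with a replicate term (25%). Their part in the result was not tested.

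Ccnd3, cyclin D3, had 8.46, 8.18 and 8.76 in part 1, 8.04, 7.89 and 8.59 in part 2, 8.27, 8.13 and 8.53 in part 3, 7.60, 7.82 and 8.23 in part 4, 7.54, 7.62 and 7.93 in part 5, 7.88, 7.56 and 7.85 in part 6 and 8.35, 7.68 and 8.54 in part 7. Parts 1 and 7 overlapped, and part 5 lay below both but for 1 array of part 7. Its slope was -0.081 ± 0.035 (SE, adjusted p = 0.119) and its F test had an adjusted p of 0.127.

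Ccng2 encodes cyclin G2, an unusual cyclin that is known to slow the cycle and is high in resting cells. Its levels were 8.37, 8.61 and 8.37 in part 1, 7.997, 8.003 and 8.15 in part 2, 8.34, 7.89 and 8.35 in part 3, 9.17, 8.90 and 9.17 in part 4, 8.92, 9.26 and 8.88 in part 5, 8.53, 8.87 and 8.67 in part 6 and 8.42, 8.62 and 8.35 in part 7. Every array of parts 4 and 5 was above all others, the lowest of them, 8.88, just above the 8.87 of an array of part 6. The F test had an adjusted p of 0.000161, and parts 3 to 5 were 1.27-fold higher than the others (0.35 ± 0.08, SE, adjusted p = 0.0186), although part 3 was as low as parts 1 and 2. That comparison was lost without replicate 1 or 3 (adjusted p = 0.45 and 0.184) and with the mean of both probe sets.

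Cdkn1c, which encodes the inhibitor p57 and is expressed from the maternal allele, had the largest change of the 40 genes between parts 1 and 7. Its levels were 8.19, 8.59 and 8.71 in part 1, 8.32, 8.15 and 8.54 in part 2, 8.31, 8.25 and 8.71 in part 3 and 8.39, 8.58 and 9.07 in part 4. In parts 5, 6 and 7 they were 9.02, 8.48 and 9.10, then 9.84, 8.98 and 9.72, and 10.04, 9.54 and 10.78. All arrays of part 7 were above those of parts 1 to 5, and parts 6 and 7 overlapped. Part 7 was 3.08-fold higher than part 1 (1.62 ± 0.28, SE, adjusted p = 0.000442, higher in 3 of 3 replicate numbers), and the slope was 0.27 ± 0.04 per part (SE, adjusted p = 5.75e-05). Slope and difference passed under every alternative run, and the F test (adjusted p = 0.000553) under all but the one without replicate 1 (adjusted p = 0.119).

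Cdkn1a, which encodes p21, the inhibitor induced by p53, fell from a low level. It had 5.77, 6.49 and 6.61 in part 1, 6.10, 6.19 and 5.79 in part 2, 5.97, 6.35 and 5.77 in part 3, 5.57, 5.50 and 5.93 in part 4, 5.86, 5.71 and 5.97 in part 5, 5.72, 4.90 and 5.86 in part 6 and 5.79, 5.24 and 5.17 in part 7, on a scale on which a signal of 0 gives 4. Parts 1 and 7 overlapped by the arrays of replicate 1. The slope was -0.140 ± 0.032 per part (SE, adjusted p = 0.00291), and part 7 was 1.85-fold lower than part 1 (-0.89 ± 0.26, SE, adjusted p = 0.026). Without replicate 2 the slope was -0.086 with an adjusted p of 0.13, and the difference between parts 7 and 1 lost its call under 6 of 34 alternatives, among them without replicate 2 (adjusted p = 0.193) or 3 (adjusted p = 0.206). Of the markers described above, 7 of 9 blood genes tested fell too, as did Krt8, the only 1 of 7 gut endoderm genes. Their part was not tested. Cdkn1b, the gene of the third family member p27, had 5.91, 6.05 and 5.37 in part 1, 5.78, 6.01 and 5.55 in part 4 and 5.59, 5.81 and 5.27 in part 7. These parts overlapped, with a slope of -0.054 ± 0.033 (SE, adjusted p = 0.289).

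**Figure D4:**
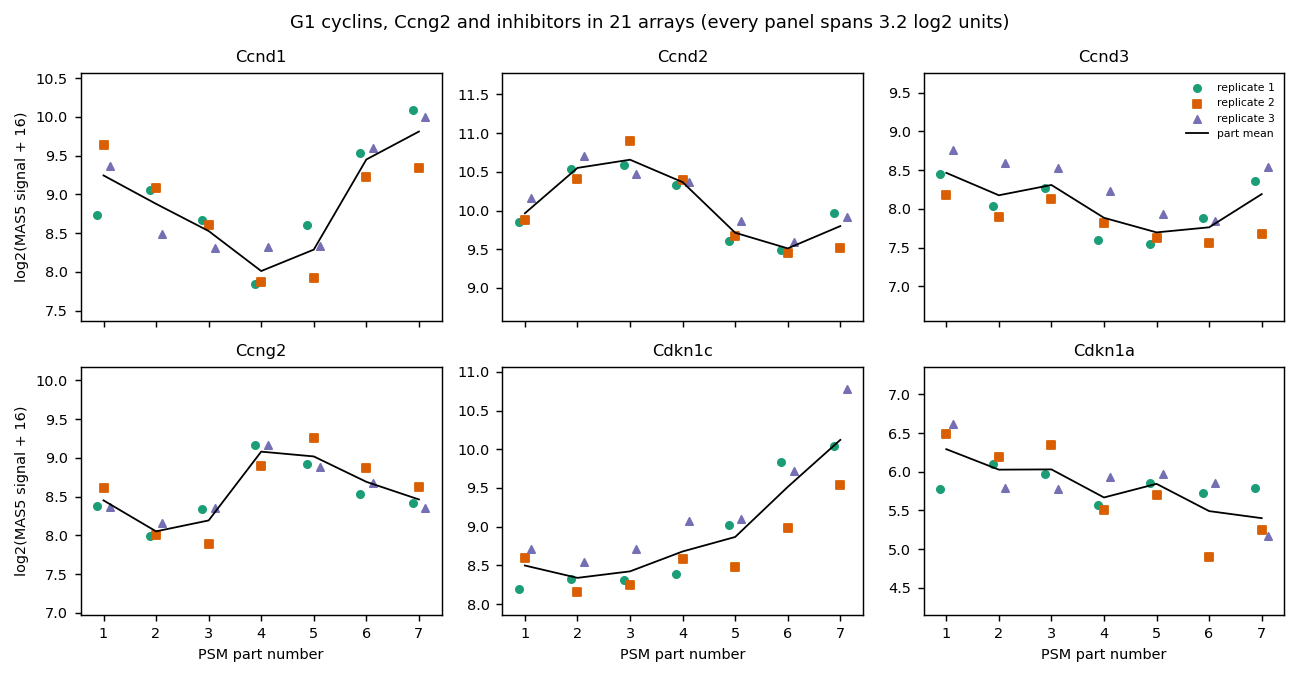
Levels of 3 D-type cyclins, Ccng2 and 2 inhibitors in log2(MAS5 signal + 16), 1 point for each of the 21 arrays, by PSM part number; the symbol gives the replicate number and the line joins the 7 part means. Ccnd1 is lowest in part 4, Ccnd2 highest in parts 2 to 4 and Ccng2 in parts 4 and 5, and Cdkn1c reaches its highest mean, 10.12, in part 7.

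Between neighbouring parts, a comparison added after the data were seen, limma called 4 of the 6 steps for 1 member each. Ccnd2 was 1.501-fold higher in part 2 than in part 1 (adjusted p = 0.0403) and 1.57-fold lower in part 5 than in part 4 (adjusted p = 0.0301). Ccng2 was 1.85-fold higher in part 4 than in part 3 (adjusted p = 0.0262), and Ccnd1 was 2.24-fold higher in part 6 than in part 5 (adjusted p = 0.0326). Of all genes tested these steps called 0.799%, 0.321%, 0.0494% and 0.486%. With a replicate term Cdc6 was also called between parts 1 and 2 (3.98% of all genes) and Cdt1 between parts 5 and 6 (1.17%). No member passed in limma from part 2 to 3 (0 at an unadjusted p under 0.05, and 0.00824% of all genes called). From part 6 to 7 no member passed either (2 at an unadjusted p under 0.05), nor did any of the 12143 genes tested.

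Other probe sets were compared in a fit across all probe sets, with p-values adjusted over these. There were 97 probe sets for the 40 genes, of which 88 passed the filter, and 29 genes had another one to compare. In 20 of them all other probe sets had a slope of the same sign. All 7 probe sets of Ccnd2 had slopes below 0, from -0.159 to -0.092, and both tested probe sets of Cdt1 and 3 of 4 of Mcm7 were called. Both other probe sets of Rrm2 had slopes above 0, of 0.041 and 0.031, that did not pass (adjusted p = 0.244 and 0.348), and part 7 minus part 1 differences of 0.051 and 0.14 (adjusted p = 0.893 and 0.649). The 2 other probe sets of Ccnd1 also passed for parts 3 to 5 against the others, at -0.70 and -0.94 (adjusted p = 0.00818 and 0.000456), but their part 7 minus part 1 differences were 0.038 and -0.42, against 0.57 for the main one. Ccne1 was the only gene without a called slope whose other probe set was called: that probe set had a slope of 0.113 ± 0.021 (SE, adjusted p = 0.000303) and a part 7 minus part 1 difference of 0.87 (adjusted p = 0.000352), while the one with the highest mean had 0.12 and an SD within parts of 0.58, the highest of all S and M genes. Only 1 probe set each measured Cdkn1c, Mki67 and Pcna.

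**Figure D5:**
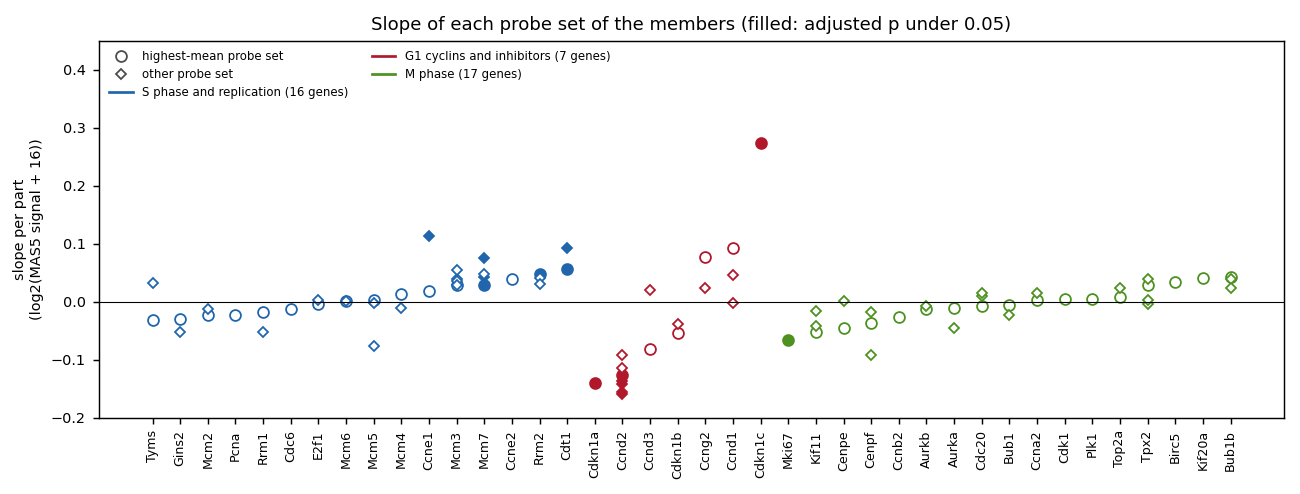
Slopes of log2(MAS5 signal + 16) on the part number for every tested probe set of the 40 genes, with circles for the probe set with the highest mean, diamonds for the others and filled symbols for an adjusted p under 0.05. All 7 probe sets of Ccnd2 lie below 0, and the second probe set of Ccne1, at 0.113, lies above all others of the S set.

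With a term for the replicate number no call was lost and more genes passed. The slope then called 10 of the 40 genes (25.1% of all genes tested), part 7 against part 1 called 11 (23.6%), the F test 11 (25%) and parts 3 to 5 against the others 5 (5.95%), of which 2 were higher (2.59%) and 3 lower (3.35%). Genes that gained a call were Mcm3, Bub1b and Ccnd3 for the slope, Mcm2, Mcm7, Pcna, Bub1b, Kif11 and Tpx2 for part 7 against part 1, Mcm7, Pcna, Rrm2, Cdc6, Ccnd3 and Mki67 for the F test, and Cdt1 and Cdkn1c for the middle parts. Of the 33 S and M genes 6 then had a called slope, 5 up and 1 down (11.3% and 13.8% of all genes), and 9 a called difference between parts 7 and 1, 5 up and 4 down (11.3% and 12.3%), of 0.18 to 0.51 in size. These are 18.2% and 27.3% of the 33, beside 25.1% and 23.6% of all genes tested.

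Other genes of the cycle were followed in 3 lists that leave out the 40. Of 41 origin and replication genes tested 3 rose and 38 did not pass (7.32% called against 19.2% of all genes). These were Pola2, of DNA polymerase alpha (0.071 ± 0.025), Rpa2, of the single-strand binding complex (0.051 ± 0.015), and Rfc4, of the clamp loader (0.048 ± 0.016, SE). Of 58 mitosis genes 2 rose and 7 fell (15.5%). Wee1, the kinase that restrains Cdk1, had a slope of -0.090 ± 0.025, the spindle gene Dlgap5 of -0.106 ± 0.033, the cytokinesis kinesin gene Kif23 of -0.087 ± 0.027 and the kinetochore gene Spc25 of -0.054 ± 0.014, while Ccnf, cyclin F, rose by 0.067 ± 0.019 and Cdca8 by 0.024 ± 0.008 (SE). With a replicate term 5 replication genes rose and 1 fell, and 5 mitosis genes rose and 9 fell, beside 11.3% and 13.8% of all genes tested. The median slopes of these lists were 0.0060 and -0.012, beside -0.0013 for all genes tested.

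In the list of G1 to S control 1 gene rose, 2 fell and 20 did not pass the slope, of 23 tested (13% against 19.2%). Cdk6, a kinase partner of D-type cyclins, fell by 0.25 ± 0.05 per part (SE, adjusted p = 0.000252) and was 2.05-fold lower in part 7 than in part 1. Ccng1, a cyclin G relative of Ccng2 induced by p53, fell by 0.172 ± 0.024 per part (SE, adjusted p = 9.49e-06). Mycn, a growth regulator, rose by 0.096 ± 0.027 (SE, adjusted p = 0.0135). The F test called 5 of the 23, beside 13.4% of all genes tested, these 3 and, named here after their values were seen, Myc and E2f2. Myc had 7.08 ± 0.28 in part 1, 5.70 ± 0.32 in part 4 and 7.00 ± 0.70 in part 7, and E2f2 6.02 ± 0.17, 5.13 ± 0.24 and 5.97 ± 0.48 (SD, n = 3). Their levels in part 4 were near background, on a scale on which a signal of 0 gives 4. Parts 3 to 5 differed from the others by -0.63 ± 0.17 in Myc (adjusted p = 0.0499) and by -0.62 ± 0.11 in E2f2 (SE, adjusted p = 0.00369), the direction also seen in Ccnd1. These were the 2 of the 23 called there, beside 2.92% of all genes tested. With a replicate term 2 genes of this list rose and 2 fell. The list had a median slope of 0.0048.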

How the data were processed

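Embryos were treated with 2 mg/ml pancreatin for 1 min, and RNA was extracted with Trizol, amplified in 2 rounds and labelled with biotin for Affymetrix mouse arrays, per the labels' protocols. What the authors deposited is a linear signal intensity for each probe set, for which the submitters' processing notes name MAS5; its version and scaling target were not given in the sources used here. Array means lay between 151 and 154.

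Of 45101 probe sets, 64 controls, 9160 with no gene symbol and 932 with several were left out. The other 34945 had 1 symbol in the platform annotation (34884 found in RefSeq GRCm38.p6). Genes at or above the median of all values, 13.3, in at least 3 arrays were kept. Values were tested as log2(value + 16), which understates changes of low genes, with limma 3.58.1 in R 4.3.3, a mean-variance trend and Benjamini-Hochberg adjustment over all 12143 genes, at a threshold of 0.05. The slope came from a straight-line fit on the part number, all other tests from a 7-part fit with 14 residual degrees of freedom. Fits were tested on simulated data. Every one of the 40 members could be named; of the other lists, up to 4 called genes each way by slope. Values in every array are given for genes called by the slope, part 7 against part 1 or the F test with or without the replicate term, and others by range or selected parts. The members and lists were chosen with earlier results of these data known. Alternatives were other pseudocounts (1 and 64), filters, normalizations, variance settings, probe set rules, a replicate block, and each replicate number, array or end part left out. The number of arrays limits the precision.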

Additional observations from a re-analysis of the deposited data

How the results depend on the processing

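No called slope or difference of a member changed direction under any alternative run. The slope called 7 members, 4 without part 1. In the S set it called 3, and 1 without part 1; in the M set 1, against 3 with median centring, 2 with the mean of probe sets and 0 without part 1; among the G1 genes and inhibitors 3, and 5 without part 7. Part 7 against part 1 called 5 members, 8 with median centring. The comparison of parts 3 to 5 called 3, 5 with array weights and 1 with the mean of probe sets. These counts stayed within 1.5 times under the other settings apart from a replicate block and arrays left out.

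The replicate block, as a fixed or a random term, gave 11 and 9 members for the F test, 11 and 10 for part 7 against part 1, 5 and 5 for parts 3 to 5, and 2 and 2 M genes for the slope. Deviations from the part means of same-numbered arrays correlated between 0.037 and 0.680, above 0.1 in 55 of 63 pairs, and 20 of 21 arrays correlated best with an array of their own number. The median was 0.307, beside -0.234 for arrays that differed in number and part. Although all 63 pairs lay above 0, 8 fell short of 0.1, a cutoff set here. The main tests therefore did not pair the arrays by number, and results with a replicate term are given beside them. The counts of genes that did not pass depend on this choice. Part 7 against part 1 called 3 of the 33 S and M genes without the term and 9 with it. Of all genes tested it called 13.4% and 23.6%.

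Leaving out a replicate number or a single array gave 3 to 8 members for the slope (S set 1 to 3, G1 genes and inhibitors 1 to 4, M set 0 to 1), 3 to 7 for the F test, 2 to 6 for part 7 against part 1 and 1 to 5 for parts 3 to 5. The fewest for part 7 against part 1, 2, came without replicate 1 or 2, or without 1 array, part 1 replicate 1 or part 7 replicate 3. Without replicate 1 the slope called 3 members, the F test 3 and parts 3 to 5 called 1; without part 7 replicate 2 the last called 5. Differences by replicate number were called in 20 members, in 13 with the mean of probe sets, and in 0 to 21 with a replicate number or array left out, the 0 coming without replicate 3. Signal near background limits Cdkn1a, Cdkn1b and Tyms, whose mean signals were 42.8, 35.7 and 47.5.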

Other observations

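Levels of many members differed between replicate numbers across the parts. In a fit with part and replicate number, limma called 20 of the 40 members as different between replicate numbers, 9 of 16 S genes, 8 of 17 M genes and 3 of the 7 others, against 33.3% of all genes tested. Mcm6 averaged 10.97, 10.99 and 10.47 over the 7 arrays of replicates 1, 2 and 3 (adjusted p = 3.95e-07), and Mcm4 averaged 11.19, 11.28 and 10.69 (adjusted p = 2.79e-06). For both, every array of replicate 3 was below every array of the other replicate numbers. Tyms, the gene of thymidylate synthase, averaged 6.15, 6.16 and 5.54 (adjusted p = 0.000392). In the other direction Bub1b averaged 9.95, 9.94 and 10.24 (adjusted p = 0.000798) and Ccnd3 8.02, 7.84 and 8.35 (adjusted p = 0.000969). In Mcm4 and Mcm6 these differences between replicate numbers were larger than the whole range of their part means, 0.25 and 0.13. All these values are from the probe set with the highest mean, and no result by replicate number is given for other probe sets. The other tested probe set of Mcm6 had a similar mean signal, 1751 against 1806, and a smaller SE of its slope, 0.015 against 0.027.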
